A study of Arabidopsis thaliana with 6 samples.

Results

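AT4G24450 is a glucan, water dikinase gene of Arabidopsis thaliana that the array annotation lists under the symbol PWD. It was found as the probe set paired with that symbol and locus, and it is 1 gene, read by 1 probe set, among 16411 distinct genes that could be named and 38408 probe sets in all. It was chosen because its signal was low in apl, so its own difference between the groups is given as a description and without a test. The annotation gives the symbol PWD to 2 genes, AT4G24450 and AT5G26570, on chromosomes 4 and 5. The reference table lists ATGWD2 among the synonyms of the first and ATGWD3 among those of the second, and they are called GWD2 and GWD3 here.

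Glucan, water dikinases transfer a phosphate group from ATP to the glucose units of starch-like glucans, which loosens the packed surface of starch granules and lets amylases reach it. In Arabidopsis, GWD1 and GWD3 (the phosphoglucan, water dikinase in the strict sense, usually called PWD) act in plastids in this way, and plants without either keep too much starch. GWD2 is the remaining isoform; it lacks a plastid signal, its promoter is known to be active in companion cells of the phloem, and its loss has little effect on leaf starch. The starch phenotypes that go with the name PWD therefore belong to AT5G26570 and not to the gene described here.

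Cotyledons of the apl mutant and of wildtype Col-0 were compared, with 3 arrays of each. Seedlings were grown for 6 days in liquid medium under continuous light, and their cotyledons were then held for 72 h in an induction medium with 2 hormones, the auxin 2,4-D at 1.25 mg/L and the cytokinin kinetin at 0.25 mg/L, and with 10 µM of bikinin, an inhibitor of GSK3-like kinases. Both genotypes received this medium, so there is no uninduced group; in this culture system, VISUAL, leaf cells are driven to form vascular cells. The gene APL encodes a MYB-family factor that phloem cells need for their identity. The contrast shows which signals differ between the mutant and wildtype in this culture. The labels name neither the apl allele nor its background. No value for APL itself, by which the labels could be checked, is analysed here.

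The values are log2 signals made with RMA, and they carry no detection call. The median log2 signal of the 6 arrays lay between 6.05 and 6.25 and the 25th percentile between 3.79 and 4.03. RCA and LHCB4.1, photosynthesis genes that mark green tissue, had mean log2 signals of 10.07 and 9.05 in apl and 10.24 and 8.90 in wildtype. Arrays with the same replicate number in both groups varied together, and such arrays are called a pair here. Whether replicates came from separate cultures is not in the labels, and the p-values then cover only the spread among these samples, which may be technical.

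GWD2 was bright in every wildtype array and dim in every apl array. Its log2 signal was 4.99, 4.45 and 3.43 in apl replicates 1, 2 and 3, against 10.03, 9.34 and 8.78 in wildtype replicates 1, 2 and 3. The groups lay far apart, with 3.79 log2 units between the highest apl array and the lowest wildtype array. The means were 4.29 ± 0.79 in apl and 9.38 ± 0.62 in wildtype (SD, n = 3 each), a log2 difference of -5.09 or 34.0-fold in signal. On the linear scale the signal was 31.8, 21.9 and 10.8 in apl and 1042, 647 and 439 in wildtype. Non-overlapping groups with the lower values in apl were found for 5.32% of all probe sets, and nothing is read from that share here because GWD2 was chosen on this contrast. In bulk tissue, fewer cells of a type and less RNA per cell cannot be told apart.

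In apl the signal of GWD2 came close to the dim end of the arrays. Its percentile among all probe sets was 36.6, 30.4 and 20.8 in apl replicates 1, 2 and 3, against 90.4, 84.9 and 80.0 in wildtype. Apl replicate 3 was the 1 array in which it lay below the 25th percentile. At such levels a signal cannot be told from background without a detection call, so the fold is one of signal, and the fold in transcript is not known. Counted from the most negative, the difference of GWD2 had rank 28 among 16411 distinct genes and rank 35 among all 38408 probe sets.

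The size of the difference was nearly the same in each pair, although the levels were not. It was -5.03 in the arrays numbered 1, -4.89 in those numbered 2 and -5.34 in those numbered 3, in each case apl minus wildtype on the log2 scale. The SD of these 3 differences was 0.23, against a median SD of 0.29 over all probe sets. Within a group the arrays of GWD2 spread more widely than most probe sets did, with an SD of 0.79 in apl and 0.62 in wildtype, against medians of 0.30 and 0.29 over all probe sets. Replicate 1 was the highest and replicate 3 the lowest in both groups. The median over all probe sets had the same order in each group, within a range of only 6.05 to 6.25.

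**Figure D1:**
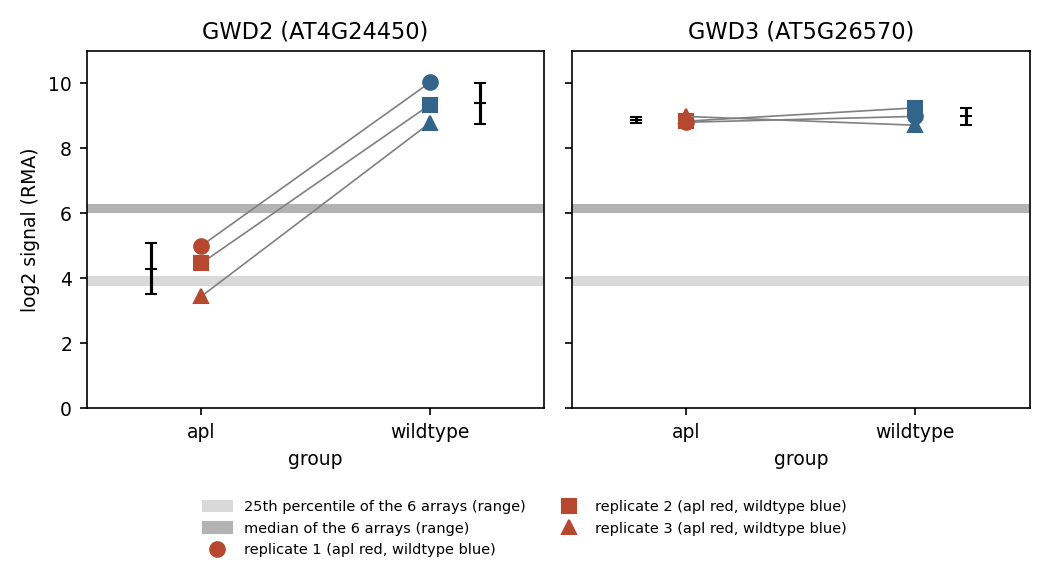
Log2 RMA signal of GWD2 (left) and GWD3 (right) in apl (red) and wildtype (blue), 1 point per array, with grey lines joining arrays of the same replicate number, black bars for mean ± SD (n = 3), and grey bands for the range over arrays of the 25th percentile and the median. The 3 lines of GWD2 run nearly parallel, with pair differences between -5.34 and -4.89, while those of GWD3 stay close to level.

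GWD3 (AT5G26570), the plastid enzyme that shares the symbol PWD, did not show this pattern. Its log2 signal was 8.80, 8.83 and 8.98 in apl replicates 1, 2 and 3, against 8.98, 9.24 and 8.71 in wildtype. The groups overlapped, with wildtype replicate 3 below all 3 apl arrays. The difference was -0.11 (SE 0.20, n = 3 per group), with a 95% interval of -0.59 to 0.37 and a Benjamini-Hochberg adjusted p of 0.929 over all probe sets (limma). The interval leaves out a loss of more than 0.59 log2 units, and thus any change near the size seen for GWD2. The symbol PWD thus covers a probe set with a difference of -5.09 and another with a difference of -0.11.

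Of the list of 6 genes for glucan phosphorylation and related dikinases, PPDK was the other one measured. PPDK (pyruvate, phosphate dikinase) is a relative that shares the dikinase mechanism but acts on pyruvate. On the log2 scale its signal was 9.32, 8.91 and 10.27 in apl against 8.74, 9.76 and 10.42 in wildtype, and the groups overlapped over almost their whole range. The difference was -0.14 (SE 0.50), its 95% interval ran from -1.33 to 1.05, and limma gave an adjusted p of 0.966. GWD1, and the phosphatases SEX4, LSF1 and LSF2 that remove the phosphate again, are not analysed here.

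The genes that break down starch gave no call. The background is that limma called 0.604% of 38408 probe sets at an adjusted p under 0.05, with 30 higher and 202 lower in apl. Of 22 starch breakdown genes 4 were measured, with 0 called by limma and 1 lower before adjustment, at p under 0.05, where the background is 9% in either direction and 4.34% lower. AMY1, an alpha-amylase, differed by -0.19 (SE 0.61) and DPE1, a plastid glucanotransferase that recycles short glucans, by 0.37 (SE 0.22). AT1G42430 and AT3G55760 were placed in this list from general knowledge, and the tables used here name them by locus code only. AT1G42430 differed by 0.39 (SE 0.32).

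AT3G55760 was the member with the smallest p, and its groups did not overlap. The log2 signal of AT3G55760 was 7.09, 7.06 and 6.72 in apl and 8.29, 8.31 and 7.59 in wildtype. The difference was -1.11 (SE 0.26), with an adjusted p of 0.183 (limma), or 0.0641 with the replicate number as a block, a fit that called 1.1% of all probe sets. Groups did not overlap for 15.2% of all probe sets in either direction, and for 5.32% with the lower values in apl.

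Starch synthesis genes likewise gave no call, with 5 of 20 measured, against the background of 0.604% called by limma. Before adjustment, 0 were higher and 1 lower at p under 0.05, where the background is 4.66% higher and 4.34% lower. APL3 and APL4, which encode large subunits of ADP-glucose pyrophosphorylase and have no relation to the regulator APL beyond the letters, differed by -0.27 (SE 0.44) and -0.70 (SE 0.41). AT1G27070 and AT5G39790, again listed by locus code, differed by -0.62 (SE 0.17) and 0.45 (SE 0.27). AT1G27070 had a log2 signal of 6.76, 6.59 and 6.65 in apl and 7.43, 7.19 and 7.24 in wildtype, so that its groups did not overlap. Such groups with the lower values in apl made up 5.32% of all probe sets. The adjusted p of AT1G27070 was 0.307 (limma). The remaining member, a starch branching enzyme gene, lay closest to 0.

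Over the glucan, starch and sucrose lists together, 11 of 58 genes were measured, and limma called 0 of them higher and 0 lower. Without adjustment, 0 were higher and 2 lower at p under 0.05, where the background is 4.66% higher and 4.34% lower. The median log2 difference was -0.14, with 4 members above 0 and 7 below, while the median of all probe sets was 0.10. The 11 differences ran from -1.11 to 0.45, and their 95% intervals all lay between -1.72 and 1.24. None of the 10 sucrose synthase, invertase and hexokinase genes of the sucrose use list is analysed here. With so few members measured, these counts describe the measured genes and not starch metabolism at large.

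**Figure D2:**
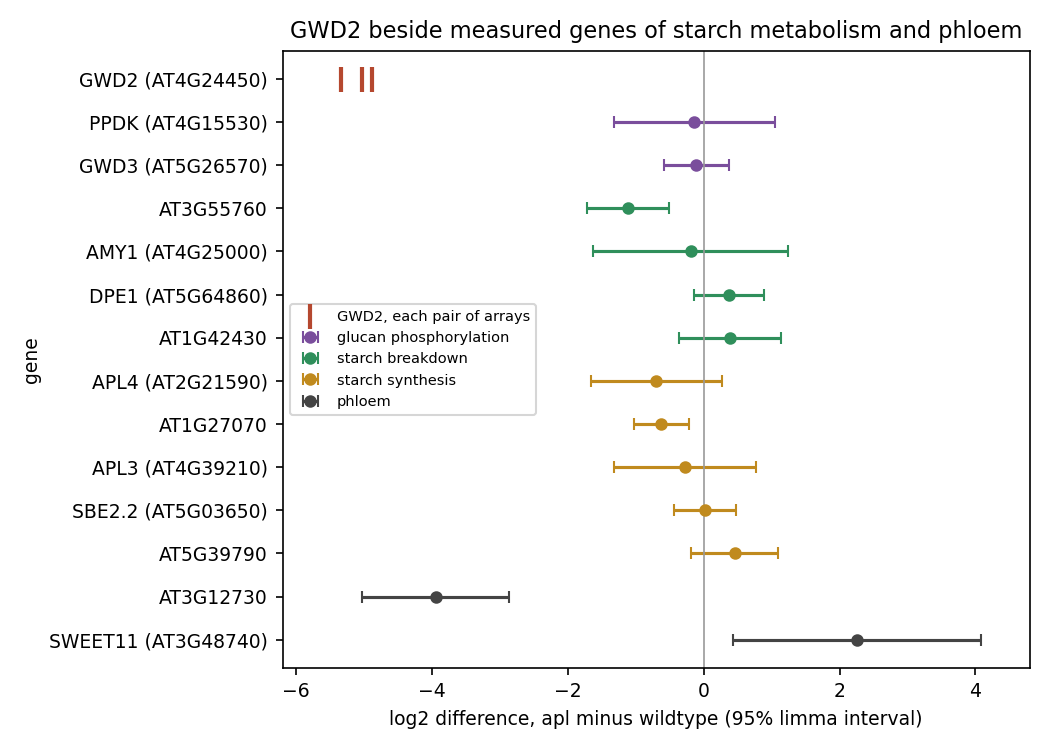
Log2 difference, apl minus wildtype, for the measured genes of glucan phosphorylation, starch breakdown, starch synthesis and phloem, as points with 95% limma intervals, and for GWD2 as red ticks at its 3 pair differences. GWD2 and AT3G12730 stand to the left, SWEET11 stands to the right, and the 11 starch-related genes lie between -1.11 and 0.45.

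Of 21 phloem genes 2 were measured, of which limma called 1 lower in apl and none higher. The called gene was AT3G12730, placed in the list from general knowledge and named by locus code in the tables used here. Its log2 signal was 3.84, 2.87 and 4.08 in apl replicates 1, 2 and 3, against 8.42, 7.16 and 7.06 in wildtype, and the groups lay apart. Its percentile in apl was 22.3, 10.6 and 28.2, again at the dim end of the arrays. In log2 units it fell by 3.95 (SE 0.46, 3 arrays per group), which is 15.4-fold in signal, with a 95% interval of -5.04 to -2.86 and an adjusted p of 0.0223 in limma. Calls of lower signal in apl made up 0.526% of all probe sets, and calls of higher signal 0.0781%. The call was lost without apl replicate 1 (adjusted p 0.106) and without wildtype replicate 1 (0.0768), 2 (0.107) or 3 (0.0562), each a fit with 5 arrays, while the difference stayed between -4.19 and -3.51.

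SWEET11, which exports sucrose towards the phloem, had higher values in apl. Its log2 signal was 11.71, 10.16 and 10.57 in apl and 10.08, 8.60 and 7.005 in wildtype, and all 3 apl arrays lay above all wildtype arrays by a narrow margin. Groups lay apart in this direction for 9.91% of all probe sets. The difference of 2.25 (SE 0.77) did not pass the test over all probe sets (limma adjusted p = 0.435), and it was 1.47 without wildtype replicate 3 and 3.01 without wildtype replicate 1. Of the phloem genes, the companion cell sucrose loader SUC2 and the sieve element genes of the list are not analysed here, and arrays of whole cotyledons do not show in which cells GWD2 was transcribed.

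Markers of other cell types gave no call, and those of xylem had lower values in apl. Of 9 xylem genes 3 were measured, all below 0: IRX15, IRX15-L and IRX10, which take part in xylan synthesis, differed by -2.06, -1.48 and -1.14, with adjusted p-values of 0.343 to 0.477 (limma). Without adjustment, all 3 were lower at p under 0.05, where the background is 4.34%. Without apl replicate 3 the differences of IRX15-L and IRX10 were -0.92 and -0.72. Taken singly, IRX15-L and IRX10 did not overlap between the groups, while IRX15 did. Groups without overlap and lower in apl made up 5.32% of all probe sets. The summed linear signal of the 3 xylem genes ranged from 1551 to 4960 in apl and from 5663 to 9106 in wildtype, without overlap. That of the 2 measured mesophyll markers of 6, RCA and LHCB4.1, ranged from 1548 to 1655 in apl and from 1293 to 2125 in wildtype. That of the 3 measured epidermal markers of 5, FAMA, SPCH and MUTE, ranged from 124 to 169 in apl and from 137 to 240 in wildtype, and they differed by -0.45, 0.04 and 0.05. RMA puts no marker at 0, and the part of the xylem markers in the difference of GWD2 was not tested.

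The measured genes nearest to GWD2 on chromosome 4 gave no call. Counted in genes from GWD2, they lay at positions from -16 to 11, so most did not adjoin it. The 5 nearest measured genes on each side were taken, and limma called 0 of the 10 against the background of 0.604%. Without adjustment, 1 was higher and 1 lower at p under 0.05, where the background is 4.66% higher and 4.34% lower. Groups did not overlap for 3 of the 10, against 15.2% of all probe sets in either direction. The 10 had a median difference of -0.09, with 95% intervals between -2.97 and 1.53. The adjoining gene AT4G24440 had a log2 signal of 6.87, 7.27 and 7.40 in apl and 6.99, 7.24 and 7.30 in wildtype, values that overlap throughout. It differed by 0.004 (SE 0.21), with a 95% interval of -0.50 to 0.51.

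AT4G24430, the gene beyond it, was the neighbour with the most negative difference. Arrays of AT4G24430 had a log2 signal of 8.78, 9.79 and 7.71 in apl and 10.56, 10.92 and 9.98 in wildtype, so that the groups did not overlap. The difference was -1.73 (SE 0.52), and limma gave an adjusted p of 0.353. With the replicate number as a block, limma gave 0.0722 (SE 0.25), again without a call, in a fit that called 1.1% of all probe sets. AT4G24410, farther off on the same side, had 7.31, 7.29 and 7.35 in apl and 6.91, 6.42 and 6.68 in wildtype, a difference of 0.65 (SE 0.19; limma adjusted p 0.342). The remaining neighbours on that side, AT4G24340 and AT4G24420, differed by -0.34 (SE 0.42) and 0.62 (SE 0.38).

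On the other side of GWD2 the nearest measured gene, AT4G24480 at position 3, differed by -0.41 (SE 0.26). SIC (AT4G24500) differed by 0.36 (SE 0.19), with all 3 apl arrays above the wildtype arrays, and AT4G24530 by -0.15 (SE 0.17). AGL24, a MADS-box regulator of flowering, differed by -0.21 (SE 0.23), and AT4G24550 by -0.02 (SE 0.22). None of these was called. For AT4G24340 and AGL24 the means of both groups lay between 2.51 and 3.04, below the 25th percentile on each of the arrays, and the lack of a call says little there.

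**Figure D3:**
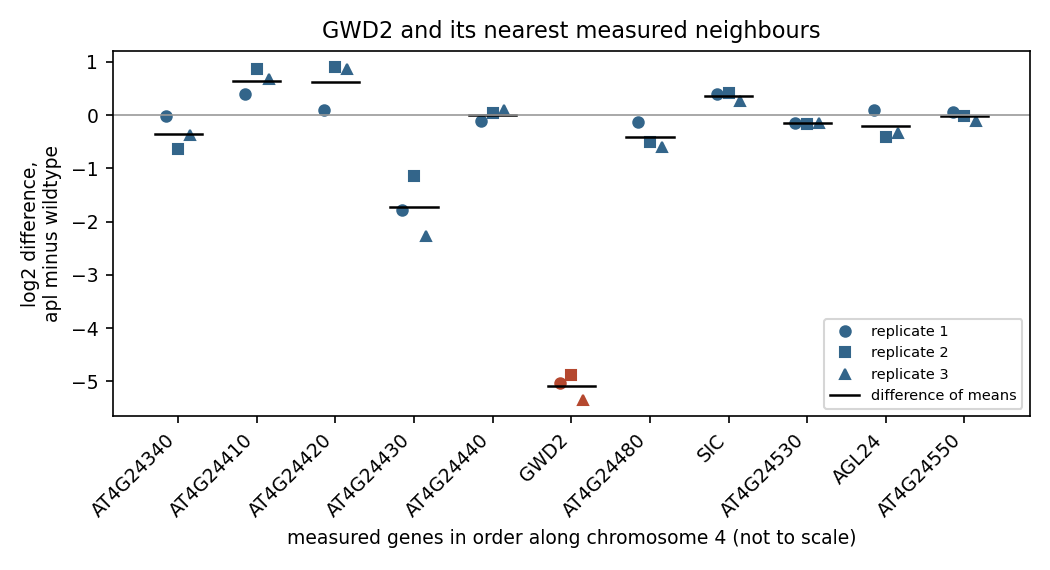
Log2 difference, apl minus wildtype, in each pair of arrays (points) and between group means (black lines) for GWD2 (red) and the 5 nearest measured genes on each side (blue), in gene order and not to scale. GWD2 lies near -5 in all 3 pairs, AT4G24430 averages -1.73, and the other neighbours average between -0.41 and 0.65.

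The genes with the profile most like that of GWD2 were ranked over the 6 arrays by the root mean square distance between log2 signals, each gene centred on its own mean. The nearest of 16410 genes were AT2G40050 at 0.40 log2 units, AT1G64370 at 0.43 and AT4G00780 at 0.44, followed by AT1G67870, AT3G24110, AT5G67050, AT4G16000 and AT3G58380 at up to 0.56. The median gene lay at 2.65. These genes were found by their likeness to a gene chosen for its difference, so their differences of -5.50 to -4.34 are a description. Of the 16410 genes ranked, 164 had a Pearson's r above 0.95 with GWD2 over the same 6 arrays. Among these were the uncalled starch genes AT1G27070 (r 0.974) and AT3G55760 (r 0.956), and the phloem gene AT3G12730 (r 0.952).

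AT2G40050 had a log2 signal of 3.55, 3.70 and 2.99 in apl and 8.68, 8.84 and 8.22 in wildtype. AT4G00780 had 3.73, 3.78 and 2.83 in apl and 8.35, 7.63 and 7.39 in wildtype, and its r with GWD2 was 0.997, the highest of all genes. In both, as in GWD2, replicate 3 was the lowest array of each group. Both genes were picked by these same values, so nothing is read from that match. Replicate 3 also had the lowest median over all probe sets in each group, 6.18 in apl and 6.05 in wildtype. Mean log2 signals of the 8 genes ran from 3.41 to 5.85 in apl and from 7.79 to 10.37 in wildtype. By the same measure AT3G12730 had rank 65, at 0.91, and GWD3 rank 4338, at 2.56.

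**Figure D4:**
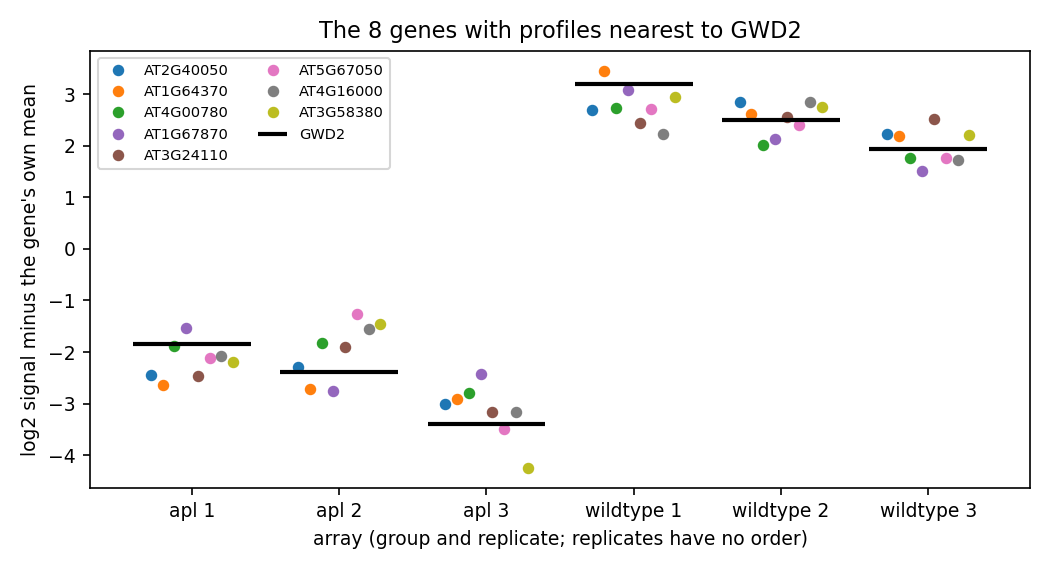
Log2 signal minus each gene's own mean in the 6 arrays, for the 8 genes nearest to GWD2 (coloured points) and for GWD2 (black lines). All 9 genes lie below their mean in the 3 apl arrays and above it in the 3 wildtype arrays, and apl replicate 3 is the lowest array for 7 of the 8 and for GWD2. The 8 were chosen by their distance from GWD2 over these same arrays, so both patterns follow largely from the choice.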

How the data were processed

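RNA of 6 samples, labelled with biotin, was read on 1-colour Affymetrix arrays. The authors deposited log2 signals for 38408 probe sets; RMA is named as the tool in the submitters' processing notes, without a version, and which arrays entered an RMA run together is not stated in the sources used here. Names come from the platform annotation and from the RefSeq table of assembly TAIR10.1. In the annotation 16722 probe sets belong to a single gene, 759 to several genes and 20927 to none listed, and 16574 of the single ones were found in the table. The brightest probe set stands for a gene with several.

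A linear model (limma 3.58.1, R 4.3.3, lmFit and eBayes) compared apl with wildtype on the values as deposited, 2-sided and over every probe set. A call is an adjusted p (Benjamini-Hochberg) under 0.05. The fit was tried on simulated data with independent noise in each array. That simulation lacked the pairing of arrays described below, so it does not show how the fit does with paired arrays. Figures were drawn with matplotlib 3.10.9. Precision is limited by the number of arrays.

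The gene and the lists (99 genes in 8 lists, 21 measured) were chosen with earlier results of these data known. Genes named are all measured members of the glucan phosphorylation list, in each other list the members with the smallest p (at most 4), the 5 nearest measured genes on each side, and the 8 nearest profiles.

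For arrays of the same replicate number, deviations from the group means had a correlation of 0.40 to 0.45, and for other pairs across groups -0.29 to -0.16. The deviations within a group cancel out, so the negative values follow from the positive ones and are no separate evidence. Same-numbered pairs also held 740 to 940 identical values, the others 0 to 2. The number was therefore taken to pair the arrays, on the data and not on the labels; whether the pairing lies in the cultures or in the processing was not tested. Alternatives were a replicate block, quantile normalization, median centring, a filter at the 25th percentile, a trended and robust variance prior, and leaving out each array. No sequence was used here.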

Additional observations from a re-analysis of the deposited data

How the results depend on the processing

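The log2 difference of GWD2 (AT4G24450) stayed between -5.15 and -5.09 under the 5 other settings and between -5.44 and -4.66 without 1 array. The count of glucan, starch and sucrose genes called and that of neighbouring genes called stayed 0 under all 11 alternatives. The count of phloem genes called was 0 to 1 without 1 array and 1 otherwise; AT3G12730 had adjusted p-values of 0.00739 to 0.0308 under the 5 other settings and 0.0257 to 0.107 without 1 array, and the replicate block (adjusted p 0.0308) changed no call of a named gene. Probe sets called higher and lower in apl numbered 81 and 340 under the replicate block, 98 and 314 under a trended and robust variance prior, and higher calls numbered 61 with probe sets under the 25th percentile left out, with fewer tests, and the counts ranged from 1 to 22 and from 20 to 308 without 1 array. For the rest, the cause was not tested. Of the 8 genes nearest to GWD2, 8 were shared after quantile normalization, 2 by Pearson's r and 3 by distance between the pair differences.

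Uncalled values near 0 changed sign. AT4G24440 was -0.053 after median centring and -0.046 after quantile normalization, and SPCH (AT5G53210) and MUTE (AT3G06120) were -0.015 and -0.010 after median centring. Without 1 array the difference ranged from -0.24 to 0.026 for GWD3 (AT5G26570), -0.59 to 0.25 for PPDK (AT4G15530), -0.85 to 0.30 for AMY1 (AT4G25000), -0.67 to 0.045 for APL3 (AT4G39210), -0.41 to 0.016 for RCA (AT2G39730), -0.19 to 0.18 for SPCH, -0.033 to 0.14 for MUTE, -0.67 to 0.00026 for AT4G24340, -0.10 to 0.16 for AT4G24440 and -0.17 to 0.094 for AT4G24550. Without a detection call, GWD2 in apl cannot be told from background.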
